A study of Caenorhabditis elegans with 2 samples.

Results

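The X chromosome of Caenorhabditis elegans carried 954 stronger binding regions (peaks) of UNC-39 in L2 larvae, of 5730 X peaks and 30000 peaks in all. The peaks were selected on their chromosome and on their signal, which had to be 23 or more in the authors' list made from both replicates together. Signal is the value the authors deposited for each peak; what it measures is not given in the sources used here, and it was compared only within a list. The share of X peaks past that value was 16.6%, and it is the choice itself, not a result. The position classes were the left arm below 6137 kb, the centre from 6137 to 12480 kb and the right arm above that.

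UNC-39 was immunoprecipitated with its bound DNA, which was then sequenced (ChIP-seq), in 1 group of 2 biological replicates. The animals were mixed-sex L2 larvae, whole, of strain OP186, whose genotype is unc-119(ed3) III; wgIs186. They carry the eGFP-tagged unc-39 insertion wgIs186 together with the unc-119 mutation ed3 in every sample, and no untagged or other strain was analysed here. The labels name the antibody as unc-39 and the target as eGFP-unc-39, so whether the tagged protein alone or also the untagged one was precipitated is not settled here. A peak in whole larvae can come from any cell that makes the precipitated protein, and the labels do not say which cells do. The replicates' own lists hold 30000 and 24978 peaks, of which 5712 and 4824 are on X, with all peaks of a list of 1 width (364 bp in the pooled list, 380 bp in replicate 1 and 356 bp in replicate 2). Read counts did not enter, so library depth is unknown, and the control alignment that the peaks were called against was not analysed here. Intervals below are exact binomial (Clopper-Pearson) 95% intervals and cover counting error over peaks only, since neighbouring peaks are not independent and peaks are no replicates of a condition. With 1 group no test between conditions could be made, and all comparisons are descriptions.

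UNC-39 belongs to the SIX4/5 family of homeodomain proteins and is needed in worms for mesoderm differentiation and for the fate and migration of some neurons. The X chromosome is the sex chromosome of this worm: hermaphrodites have a pair and males a single copy. In hermaphrodites a condensin-containing dosage compensation complex is loaded onto X at recruitment sites that hold the MEX motif, and it then spreads along the chromosome to lower X expression. The central region of worm autosomes is gene-dense and the arms are richer in repeats, a contrast that is weaker on X.

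The sequences found at the strongest of these peaks come first, since the counts further on turn on them. The 9-base word GCGCAGGGA is a part of the MEX motif, and 9 of the 954 peaks held it without mismatch in the 200 bp around the summit, on either strand. Their sequences are given 5′ to 3′ on the strand of the word, from the RefSeq genome of WBcel235 (the assembly that is also called ce11), with the word in capitals and the name of each giving its pooled rank among all 30000 peaks.
Rank 4, centre, chrX:11094104-11094152, minus strand: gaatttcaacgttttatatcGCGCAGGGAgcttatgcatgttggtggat
Rank 5, centre, chrX:6296556-6296604, plus strand: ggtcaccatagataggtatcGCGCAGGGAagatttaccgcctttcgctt
Rank 10, left arm, chrX:5429570-5429618, plus strand: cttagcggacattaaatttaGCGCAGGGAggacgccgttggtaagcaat
Rank 13, left arm, chrX:2997102-2997150, minus strand: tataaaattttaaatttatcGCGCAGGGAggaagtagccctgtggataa
Rank 26, left arm, chrX:4209245-4209293, minus strand: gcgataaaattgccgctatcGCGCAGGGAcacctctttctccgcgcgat
Rank 27, right arm, chrX:14525879-14525927, minus strand: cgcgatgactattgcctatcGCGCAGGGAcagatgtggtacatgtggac
Rank 77, left arm, chrX:806730-806778, plus strand: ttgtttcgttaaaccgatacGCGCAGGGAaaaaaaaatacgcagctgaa
Rank 613, centre, chrX:8036415-8036463, plus strand: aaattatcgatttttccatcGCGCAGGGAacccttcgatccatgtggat
Rank 1434, left arm, chrX:1437275-1437323, plus strand: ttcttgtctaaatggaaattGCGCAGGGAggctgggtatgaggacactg

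The word itself was fixed by the search, and the letters next to it varied. A C stood directly before it in 7 of the 9, TC in 6, and a G directly after it in 4, with TC before and G after together in 2. The centre of the word lay between 6 and 90 bp from the summit. A second kind of sequence, runs of alternating G and A, was found at other high peaks, and 4 stretches at the peaks of rank 7, 12, 18 and 25 are shown with the longest run in capitals. The peak of rank 25 also held the 9-base word with 1 mismatch. The stretch of rank 7 holds a second, shorter run, left in lower case. That shorter run lies within the 200 bp around the summit and was the one counted, while the run in capitals lies partly outside.
Rank 7, centre, chrX:7264964-7265024, plus strand: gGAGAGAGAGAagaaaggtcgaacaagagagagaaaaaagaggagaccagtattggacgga
Rank 12, left arm, chrX:3127928-3127988, minus strand: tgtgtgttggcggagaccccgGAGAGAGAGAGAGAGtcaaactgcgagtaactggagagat
Rank 18, left arm, chrX:5729247-5729307, plus strand: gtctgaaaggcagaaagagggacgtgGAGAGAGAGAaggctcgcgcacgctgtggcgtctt
Rank 25, right arm, chrX:16147921-16147981, minus strand: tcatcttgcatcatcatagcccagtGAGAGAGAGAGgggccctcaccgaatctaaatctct

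The highest X peak held neither the word, even with 1 mismatch, nor an 8-base GA or CA run. The 151 bases around its summit are printed for that reason, all in lower case because no word was found in them.
Rank 2, right arm, chrX:13700836-13700986, plus strand: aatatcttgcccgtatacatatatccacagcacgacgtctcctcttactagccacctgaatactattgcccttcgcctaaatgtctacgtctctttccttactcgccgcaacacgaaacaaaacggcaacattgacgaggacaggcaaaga

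That peak (chrX:13700729-13701092) had a pooled signal of 136, a signal of 60.2 in replicate 1 and one of 77.8 in replicate 2. It ranked 2 in replicate 1's own list and 1 in replicate 2's. It lay between genes, with the noncoding RNA gene K02D3.5 nearest at 3123 bp. The peak of rank 4 (chrX:11094036-11094399) had a pooled signal of 114, with 50.7 and 63.6 in replicates 1 and 2, and ranked 4 in both; its nearest gene was a tRNA gene 1455 bp away. The peak of rank 5 (chrX:6296378-6296741) had a pooled signal of 105, with 48.6 and 58.4 in the replicates, ranks 5 and 6. It was in an intron of mom-1, the worm Porcupine homologue needed to secrete Wnt proteins. These 3 peaks were near the top of both replicates' lists.

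The next peaks were less alike between the replicates. The peak of rank 7 (signal 92.5, chrX:7264888-7265251), 578 bp upstream of F46H5.2, ranked 49 in replicate 1 and 9 in replicate 2. The peak of rank 8 (signal 90.9, chrX:13145203-13145566) in an intron of F09A5.3 ranked 17 and 7. That of rank 9 (signal 89.1, chrX:7234758-7235121) in an intron of F46H5.3, which encodes a probable arginine kinase, ranked 20 and 8. All 3 ranked better in replicate 2.

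In the left arm the highest peak (signal 89, chrX:5429344-5429707) had its summit in coding sequence of the polyketide synthase gene pks-1 and ranked 55 in replicate 1 and 5 in replicate 2. The second there (signal 82.6, chrX:3127703-3128066), 806 bp upstream of the alpha-spectrin gene spc-1, ranked 13 and 15. The third in that arm (signal 81.3, chrX:2996950-2997313) was in an intron of Y41G9A.17 and ranked 32 and 12; its 200 bp held the MEX word at a GC content of 33%. The fourth (signal 73.1, chrX:5729056-5729419) was in an intron of rgs-6, which encodes a G protein signalling regulator, 215 bp upstream of the start of a shorter transcript, and ranked 6 and 64. The fifth (signal 68.3, chrX:4209105-4209468) was 1284 bp from hpk-1, a homeodomain-interacting protein kinase gene, and ranked 26 and 88. The left arm thus held peaks that favoured either replicate.

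In the centre, the peaks of rank 15 and 16 had the same signal to 3 digits, 76.7, and both held the MEX word with 1 mismatch. The first (chrX:11937374-11937737) lay 574 bp from F55G7.5 and ranked 96 and 10 in replicates 1 and 2, and the other (chrX:9465621-9465984) lay 1062 bp from ZK899.6 and ranked 21 in both. That of rank 23 (signal 69.5, chrX:7284592-7284955), 1555 bp from the noncoding RNA gene K03A1.9, ranked 66 and 17. In the right arm the peak with signal 68.7 (chrX:16147858-16148221), 294 bp from the noncoding RNA gene F09C8.4, ranked 11 in replicate 2 and was unmatched in replicate 1, where no summit lay within 100 bp. The next (signal 68, chrX:14525747-14526110) lay 748 bp upstream of nspc-17, of a nematode-specific peptide family, and ranked 108 and 22. The fifth of the right arm (signal 66.8, chrX:15841158-15841521) lay 232 bp upstream of serp-1.1 and ranked 48 and 49. Thus 1 of these peaks was missing, within 100 bp, from a replicate's own list.

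Most of the 954 peaks were much lower than these. Signals ran from 23 to 136 with a median of 26.4 and quartiles of 24.4 and 30.9. There were 683 peaks from 23 to below 30, 221 from 30 up to 45.7, and 50 that also stand in the authors' thresholded list, from 46.1 to 136 with a median of 55.9. All 50 thresholded X peaks were thus among the stronger ones. The 3 peaks just inside the minimum, all at 23 after rounding, were 782 bp from F54G2.1, in an intron of sad-1, a kinase gene of presynaptic development, and in a coding exon of T19D7.7. The 3 X peaks just outside it, also at 23 after rounding, were in a coding exon of F56C3.4, within 1000 bp of 5′ ends of R02E4.3 and of the chloride channel gene clh-4, and 621 bp from the noncoding RNA gene C25F6.20. On the autosomes 14.8% of 24270 peaks (14.4 to 15.3) reached the same signal, and X held 20.9% of the 4556 stronger peaks and 19.1% of all peaks.

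**Figure D1:**
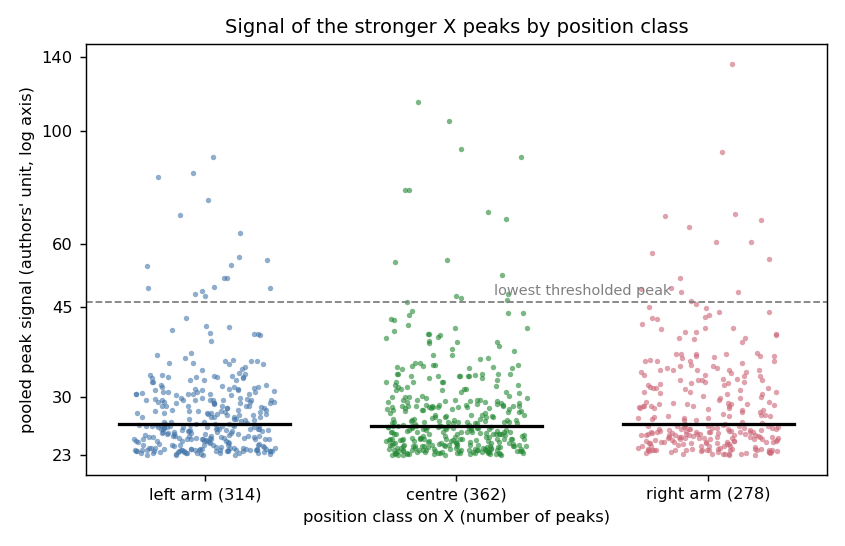
Pooled signal (log axis, authors' unit) of each of the 954 stronger X peaks, one point per peak with random sideways scatter, by position class; black bars are medians and the dashed line is the lowest thresholded peak, at 46.1. The medians of 26.4, 26.2 and 26.5 are nearly level, and the highest peak of each class is at 89 in the left arm, 114 in the centre and 136 in the right arm.

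Along the chromosome the stronger peaks followed the length of each class and the number of all X peaks there. The left arm held 314 of them (32.9%, 29.9 to 36), the centre 362 (37.9%, 34.9 to 41.1) and the right arm 278 (29.1%, 26.3 to 32.1). The classes make up 34.6%, 35.8% and 29.6% of the length of X, and they held 34.3%, 36.5% and 29.3% of all 5730 X peaks. Each length share and each share of all X peaks lay inside the interval of the stronger peaks. Per megabase there were 51.2, 57.1 and 53.1 stronger peaks in the left arm, centre and right arm, beside 149, 170 and 142 protein-coding genes. The order of the classes was thus that of gene density only for the centre, which was highest on both.

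The share of local X peaks that reached the minimum was 16% in the left arm (14.4 to 17.7), 17.3% in the centre (15.7 to 19) and 16.6% in the right arm (14.8 to 18.4), with overlapping intervals. The thresholded peaks numbered 18, 16 and 16. Signals of 30 or more made up 27.1% of the stronger peaks in the left arm (22.2 to 32.3), 24.6% in the centre (20.2 to 29.4) and 34.9% in the right arm (29.3 to 40.8). The right arm had the highest share of such peaks, and its interval overlapped that of the centre only narrowly. Over the 17 full megabases of X the count ran from 36 to 67 with a median of 54, and the share of local peaks past the minimum from 11.8% to 20.5%. Megabase 14 to 15 had the fewest and megabase 11 to 12 the most.

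Neighbouring stronger summits were a median of 11.2 kb apart against a mean of 18.2 kb, a ratio of 0.612. The shortest distance was 199 bp, between the peak of rank 23 by K03A1.9 and one with signal 39.8 beside it, and 18 neighbouring pairs overlapped. Another stronger summit lay within 10 kb of 71.4% of the peaks (68.4 to 74.2), within 5 kb of 50.8% and within 1 kb of 9.54%. The ratio of median to mean distance was 0.663 over all X peaks, whose mean was 3.09 kb, and 0.585 over stronger autosomal peaks, whose mean was 22.8 kb. On the autosomes 64.8% had another stronger summit within 10 kb. The 50 thresholded peaks were far sparser, with a median distance of 204 kb and 12% within 10 kb of another.

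The classes differed more in close spacing than in wide spacing. The share with another stronger summit within 5 kb was 41.7% in the left arm, 58.3% in the centre and 51.4% in the right arm. Within 10 kb the shares were 69.4% (64 to 74.5), 75.1% (70.4 to 79.5) and 68.3% (62.5 to 73.8), with overlapping intervals. Median distances were 11.2, 10.7 and 11.9 kb. Overlapping pairs numbered 2, 6 and 10, so the right arm had the most and the left arm the fewest.

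**Figure D2:**
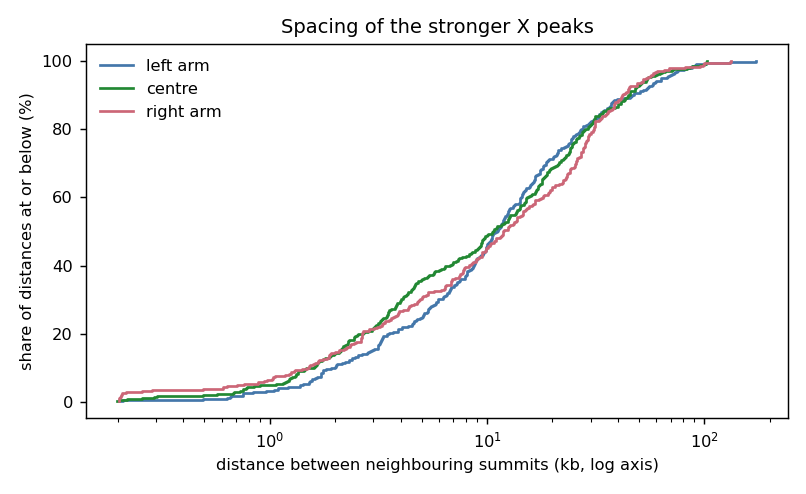
Cumulative share (%) of the distances between neighbouring stronger X summits at or below each distance (kb, log axis), one line per position class. The centre's line runs above the others near 5 kb, and the lines meet near their medians of 11.2, 10.7 and 11.9 kb.

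The densest 100 kb ran from the summit at 7231313 to that at 7323763 in the centre and held 23 stronger peaks of 60 pooled peaks (38.3%), where X had a mean of 5.38 stronger peaks per 100 kb. It was found by its count and is given without a test. Of the 23, 3 were thresholded and 9 had a signal of 30 or more. Their signals ran from 23.4 to 92.5 with a median of 28.7. The mean over X was 32.3 pooled peaks per 100 kb. The median signal of all 60 peaks there was 21.4, against 17.1 over X. Both replicates' own lists had more peaks there than their X mean, with 63 in replicate 1 (mean 32.2 per 100 kb) and 53 in replicate 2 (mean 27.2). Their median signals there were 12.5 against 10.5 in replicate 1, and 11.3 against 9.53 in replicate 2. The replicates' reads also made the pooled list by which the stretch was found, so these values are no independent check. Copy number of the region was not measured, and its part in these values was not tested.

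Of the 23 summits in this stretch, 11 were in coding exons, 2 in introns and 10 outside protein-coding genes. The peaks at 92.5 and 89.1, by F46H5.2 and in F46H5.3, were described above. F46H5.2 also had a peak with signal 38.4 in a coding exon, ranked 669 in replicate 1 and 11682 in replicate 2, and one with signal 28.7 ranked 24786 and 414. The gene unc-10, for the active zone protein RIM of synaptic vesicle priming, held summits in coding exons with signals of 26.2, 24.8 and 23.4. Upstream of lron-7, a leucine-rich repeat gene, a peak at 225 bp had a signal of 33.3 and was matched only in replicate 2, at rank 10409. Upstream of spp-5, a saposin-like antimicrobial gene, one at 175 bp had a signal of 23.7 and was matched only in replicate 1, at rank 1292. Peaks with signals of 42.5 in a coding exon of T08A9.13 and 33 at 107 bp upstream of F46H5.11 were matched in both. The remaining peaks were in or near F46H5.3, F46H5.4, F46H5.7, F46H5.11, K03A1.9, lron-7, a piRNA gene or a tRNA gene. In all, 15 of the 23 were matched in both replicates.

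The next densest windows held 17 stronger peaks of 59 (first summit 16714571), 15 of 52 (11448174), 13 of 39 (2786309) and 12 of 45 (680175), and none of them held a thresholded peak. The longest stretch without a stronger summit was 173739 bp, from 1664190 to 1837929 in the left arm, and 27 weaker peaks lay in it. So the stretch did hold peaks in the pooled list.

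Gene features differed by signal within the stronger peaks. Summits lay outside protein-coding genes for 43.4% (40.2 to 46.6), in coding exons for 27.8% (25 to 30.7), in introns for 24.3% (21.6 to 27.2) and in untranslated exons for 4.51%. Among weaker X peaks the shares were 38.1% (36.7 to 39.5), 26.5%, 30.1% (28.8 to 31.4) and 5.34%. Coding exons held 30.6% of the peaks from 23 to below 30, 24.4% of those from 30 up to the thresholded ones, and 2 of 50 thresholded peaks (4%, 0.488 to 13.7). The share outside protein-coding genes was 40%, 46.6% and 76% (61.8 to 86.9) in the same order. Introns held 24.2%, 25.8% and 20%. The coding exon share was thus highest in the class from 23 to below 30 (27.2 to 34.2), above the 26.5% of weaker peaks (25.2 to 27.7) with intervals that overlap narrowly, and lowest in the thresholded class.

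**Figure D3:**
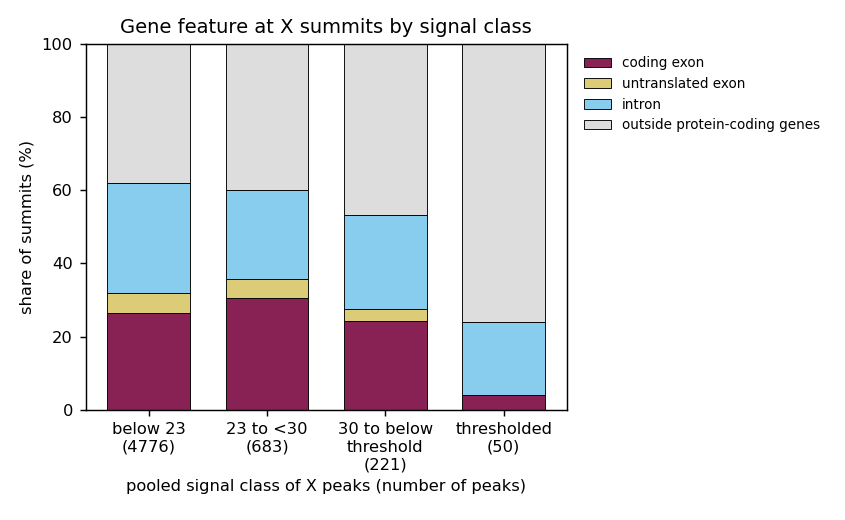
Share (%) of X summits by gene feature, for weaker peaks (signal below 23) and 3 signal classes of the stronger ones, with the number of peaks under each bar. The coding exon part is 26.5%, 30.6%, 24.4% and 4% from left to right, and the part outside protein-coding genes 38.1%, 40%, 46.6% and 76%.

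Promoters, taken as 500 bp upstream to 100 bp downstream of a protein-coding 5′ end, held 18.9% of stronger summits (16.4 to 21.5) and 13.5% of weaker X summits (12.6 to 14.5). The same number of highest X peaks had 14.3% in promoters when taken from replicate 1's list alone and 19% when taken from that of replicate 2. Within the stronger pooled peaks the share had no order by signal, at 19.5%, 16.7% and 20% in the 3 signal classes. It was 20.1%, 18.5% and 18% in left arm, centre and right arm, each above the 13.2%, 14.9% and 12.3% of weaker peaks of the same class. The median distance to a protein-coding 5′ end was 1360 bp, against 1478 bp for weaker peaks. Coding exons held 27.4%, 29.3% and 26.3% of stronger summits in left arm, centre and right arm, and introns 25.2%, 25.4% and 21.9%, so features varied little by position. Stronger autosomal peaks had 35.1% in coding exons (33.5 to 36.6), 31.3% outside protein-coding genes (29.8 to 32.8) and 17.6% in promoters (16.4 to 18.9). The intervals of X and autosomal peaks did not overlap for coding exons or for summits outside protein-coding genes, and the difference was not tested.

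Replicates are compared by rank because their signals have separate scales. Their reads also went into the pooled list that chose the peaks, so what follows is a description and no independent check. Of the 954 peaks, 780 (81.8%) were matched by a summit within 100 bp in the list of replicate 1, 732 (76.7%) in that of replicate 2, 580 (60.8%, 57.6 to 63.9) in both and 22 in neither. Among weaker X peaks 12% were matched in both and 19.9% in neither. The share in both was 56.1% for signals from 23 to below 30, 69.2% for the next class and 88% for thresholded peaks. The authors' thresholded list was made by irreproducible discovery rate (IDR), which keeps peaks by agreement of their ranks between lists. On X the class was also the 50 peaks of highest pooled signal, so choice by IDR and choice by signal cannot be told apart here. The high share of that class can come from either, which was not tested. By position the share in both was 63.4%, 59.1% and 60.1% in left arm, centre and right arm.

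The median rank of matched peaks was 3663 in replicate 1 and 3282 in replicate 2. It was 4946 and 5438 for signals from 23 to below 30, 1832 and 1030 for the next class, and 66 and 71 for thresholded peaks. By position the median ranks in replicate 1 were 3851, 3918 and 2866, and in replicate 2 they were 3496, 3964 and 2534, for left arm, centre and right arm. The right arm had the best median rank in both replicates. Of the stronger peaks 137 (14.4%) stood within the first 4556 of both lists. Over all 5730 X peaks the number was also 137 (2.39%). Among these 137, 43 were thresholded, of 50 thresholded peaks in all. The high places of thresholded peaks in both lists can likewise come from how the class was chosen, by IDR or by high pooled signal, which was not tested. Over the 580 peaks matched in both, Spearman's rho between the ranks was 0.00634, against 0.218 over 1154 matched X peaks of any signal. It was 0.269 over the 44 thresholded peaks matched in both. All 3 values describe ranks from reads that also set the pooled signal. The peaks were chosen on a pooled signal that both replicates' reads set. Such a choice can lower rho, and its part here was not tested. The value near 0 therefore does not show that stronger peaks agreed less than X peaks at large. The larger rank of a matched pair was a median of 3.76 times the smaller, with 284 peaks ranked better in replicate 1 and 294 in replicate 2.

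**Figure D4:**
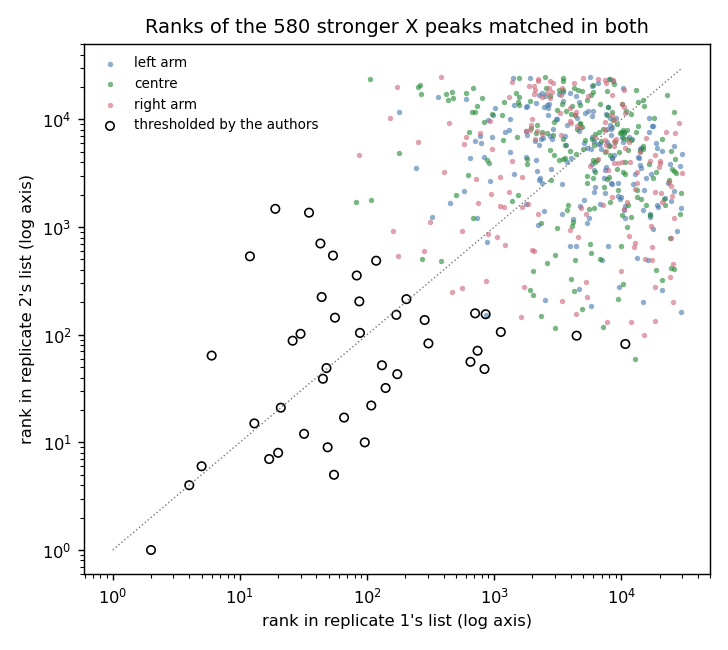
Rank of the 580 stronger X peaks matched in both replicates, in replicate 1's list (x, log axis) and in replicate 2's (y, log axis), coloured by position class, with black circles for the 44 thresholded ones and a dotted line for equal ranks. The thresholded peaks lie mostly at ranks under 1000 in both, with medians of 66 and 71, and the others form a cloud with no trend along the line. Thresholded peaks stand in the authors' IDR list and were also the 50 X peaks of highest pooled signal. All peaks were chosen on pooled signal, so neither pattern measures agreement between replicates.

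The 5 largest differences in rank all favoured replicate 2. The first (signal 41.3, chrX:5085471-5085834), at a tRNA gene in the left arm, ranked 29465 in replicate 1 and 164 in replicate 2. Peaks with signals of 29.3 in an intron of R03G5.6 and 25 at 2399 bp from prdm-14, a PR-domain gene, ranked 28749 and 1312, and 29709 and 2052. In a coding exon of ifc-2, an intermediate filament gene, a peak at 24.5 ranked 29316 and 1492. The last, at 24.4 and 196 bp upstream of sprr-2, ranked 29893 and 3180. Replicate 1's list is the longer one, so ranks beyond 24978 could occur only there.

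The MEX word with at most 1 mismatch was in 34 of the 954 peaks (3.56%, 2.48 to 4.94), beside 1.30% of weaker X peaks and 1.75% of the 3602 stronger autosomal ones, over regions of the same 200 bp. The share was 2.05% for signals from 23 to below 30 and 2.26% for the next class. Among thresholded peaks it was 15 of 50 (30%, 17.9 to 44.6). By position the counts were 13 (4.14%), 12 (3.31%) and 9 (3.24%) in left arm, centre and right arm. So the share stood at 30% only in the thresholded class and 2.05% and 2.26% in the lower classes of stronger peaks.

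Of the 34 peaks with the word, 25 were outside protein-coding genes, 5 in introns and 4 in coding exons, and 8 were in promoters. Their median signal was 35.1 and their median GC content 44%. They made up 5 of the 10 highest and 12 of the 25 highest stronger X peaks, and 24 were matched in both replicates. Neighbouring peaks with the word were a median of 357 kb apart. Without mismatch the word was in 9 stronger peaks (0.943%), 7 of them thresholded, and in 0.0838% of weaker X peaks and 0.0278% of stronger autosomal ones.

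Read from the genome, X had 34 exact copies of the word (1.92 per Mb) and the autosomes 79 (0.957 per Mb). A stronger summit lay within 100 bp of 11 of the 34 on X (32.4%, 17.4 to 50.5), of which 8 were near a thresholded one. On the autosomes it did for 1 of 79 (1.27%, 0.0320 to 6.85), and that one was not thresholded. By position the counts on X were 5 of 15, 5 of 13 and 1 of 6 in left arm, centre and right arm. Copies can share a peak or lie across the edge of its 200 bp. Most exact copies on X thus had no stronger summit at them. What distinguishes the copies with a peak was not tested.

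The other words were looked for in the same 200 bp, on either strand. GAGAGAGA was in 4.72% of stronger X peaks (3.46 to 6.26), 1.72% of weaker X peaks and 4.91% of stronger autosomal ones. Its share was 3.07%, 7.24% and 16% in the 3 signal classes from low to high, and 5.41%, 2.49% and 6.83% in left arm, centre and right arm. CACACACA was in 5.03% of stronger X peaks, 1.88% of weaker X peaks and 3.83% of stronger autosomal ones, with 4.25%, 5.43% and 14% by signal class and 5.10%, 3.04% and 7.55% by position. CAGCTG, an E-box that basic helix-loop-helix factors can bind, was in 5.87%, beside 3.83% of weaker X peaks and 5.91% of stronger autosomal ones. It was in 6%, 2.71% and 18% by signal class, with no order, and in 7.01%, 3.59% and 7.55% by position, so all 3 of these words were rarest in the centre. TGATAA, which GATA factors can bind, was in 15.6% of stronger X peaks (13.4 to 18.1), 18.1% of weaker ones (17 to 19.2) and 12.8% of stronger autosomal ones. By signal class it was in 17.6% (14.8 to 20.6), 11.8% (7.83 to 16.8) and 3 of 50 (6%, 1.25 to 16.5), with overlapping intervals. By position TGATAA was in 15.6%, 17.1% and 13.7%, highest in the centre.

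**Figure D5:**
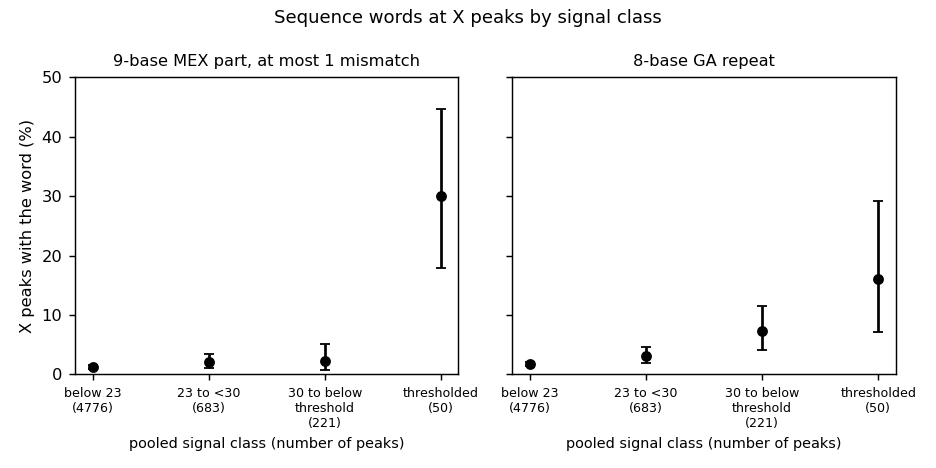
Share (%) of X peaks whose 200 bp around the summit hold the 9-base MEX word with at most 1 mismatch (left) or GAGAGAGA (right), by signal class, with exact binomial 95% intervals and the number of peaks in brackets. The MEX word is at 1.30%, 2.05%, 2.26% and 30%, a step at the last class, and the GA repeat at 1.72%, 3.07%, 7.24% and 16%, each class above the one before.

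GC content also differed between these classes. Its median over the 200 bp was 41.5% in stronger and 37.5% in weaker X peaks, and 41%, 43.5% and 47.8% in the 3 signal classes. By position it was 42.2%, 41% and 42.5% in left arm, centre and right arm. Stronger autosomal peaks had the same median of 41.5%. The part of GC content in the word counts was not tested. Words of 36 bases that occur more than once in the genome were found around 3.98% of stronger and 3.98% of weaker X summits, and no stronger peak had them over more than 44.2% of its 200 bp.

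Transfer RNA genes lay within 200 bp of 35 stronger summits (3.67%, 2.57 to 5.07) and of 1.24% of weaker X summits. These peaks reached 39 of the 276 tRNA genes on X (14.1%, 10.2 to 18.8). The highest had signals of 49.1 (chrX:410126-410489), 48.2 (chrX:13665391-13665754) and 47.3 (chrX:11095502-11095865), and ranked 740 and 71, 284 and 137, and 708 and 158 in replicates 1 and 2. There were 10 in the left arm, 13 in the centre and 12 in the right arm. MicroRNA genes lay within 200 bp of 5 stronger summits, at mir-62 (signal 35.3), at mir-55 and mir-56 (33.8), and at mir-75 (32.4), mir-264 (26.5) and mir-74 (25.4). That is 0.524% of stronger X peaks (0.170 to 1.22), beside 9 of 4776 weaker ones (0.188%, 0.0862 to 0.357), with intervals that overlap.

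Of the 2727 protein-coding genes of X that were counted, 358 had a 5′ end within 1000 bp of a stronger summit, 13.1% (11.9 to 14.5). The gene groups below are small, and each interval overlapped that of all X genes. Muscle and attachment genes were reached at 4 of 14 on X (28.6%, 8.39 to 58.1). These were tnt-3 (signal 34.2) and mup-2 (32.1), both genes for troponin T, dim-1 (24.9), for an immunoglobulin-domain muscle protein, and unc-97 (23.2), for a LIM-domain protein of attachment sites. The tnt-3 and mup-2 summits were in coding exons, 479 and 613 bp from a 5′ end. Both ranked better in replicate 2, at 462 against 2582 for tnt-3 and 1103 against 4131 for mup-2.

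Genes of neurons were reached at shares above the 13.1% of all X genes, as was every group here, with wide intervals that overlapped that of all X genes. Transcription factors of neuron fate had 3 of 16 (18.8%, 4.05 to 45.6), the LIM homeobox gene ceh-14 (signal 30.6), the PAX6 gene vab-3 (24.5) and the SOX gene egl-13 (23.7). Synaptic, channel and neuropeptide genes had 7 of 39 (17.9%, 7.54 to 33.5), with the highest signal at the neuropeptide gene nlp-3 (29), 18 bp from its 5′ end, ranks 1114 and 1581. The others were unc-18 (26.1), for the Munc18 vesicle-fusion protein, the potassium channel gene slo-2 (25.8), the FMRFamide-like peptide genes flp-2 (25.1) and flp-18 (23.4), the dopamine receptor gene dop-3 (24.8) and the innexin gene unc-9 (24). Migration and guidance genes had 5 of 25 (20%, 6.83 to 40.7). Among them unc-115, for an actin-binding protein of axon guidance, had a thresholded peak with signal 55.2 at 118 bp from its 5′ end, ranks 87 and 204. The others were slt-1 (29.8), the Slit gene, syg-1 (25.9), for a synapse-placing adhesion protein, the ephrin gene efn-3 (23.5) and rig-1 (23.2), for a neuronal immunoglobulin-domain protein.

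Heterochronic and mesoderm regulators were reached at 4 of 11 (36.4%, 10.9 to 69.2). The highest peak was at ain-1, a GW182-family gene of microRNA silencing (signal 60.6 in the pooled list, 26.4 in replicate 1 and 29.9 in replicate 2), 920 bp from its 5′ end. The gene sma-9, for a Schnurri-like factor with a role in the postembryonic mesoderm, had a signal of 29.6 and no match in either replicate's list. The Argonaute gene alg-1 (24.3) and the casein kinase 1 gene kin-20 (25.3) were matched only in replicate 1. Sex determination and dosage compensation genes were reached at 2 of 6 (33.3%, 4.33 to 77.7), at ceh-39 (26.2), an X-signal element gene, and sdc-1 (24.9), for a zinc finger protein that acts in dosage compensation. Cuticle and body shape genes were reached at 2 of 9 (22.2%, 2.81 to 60), at dpy-23 (35.8), for an AP2 adaptor subunit, and dpy-6 (23.1). Across all these groups, only the unc-115 and ain-1 peaks were in the thresholded list.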

How the data were processed

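The authors did ChIP-seq on 2 biological replicates and deposited peak lists in narrowPeak format. The signal in the seventh column is the value the authors deposited per peak. Per the labels' file lists, peaks were called by the authors per replicate and on both replicates together, each with a control alignment, and the thresholded list was made from these lists. No aligner, caller, version or threshold is given in the sources used here, and the depth is unknown.

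From the pooled ce11 list, X peaks with a signal of 23 or more were taken, with the summit at the start plus the peak offset. Features and 5′ ends came from Ensembl release 115 (WBcel235) and sequence from RefSeq. Summits within 100 bp counted as shared. Words were searched in 200 bp on both strands. Scripts used Python 3.11.15, pandas 2.3.3, numpy 2.4.6 and scipy 1.17.1, and were tested on simulated data. Counts, shares and medians are given with exact binomial 95% intervals and no test, since there is 1 group.

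Peaks were named by rule: the 15 highest, the 5 highest per position class, 3 on each side of the minimum, the 5 largest rank differences, the densest 100 kb, and members of the gene lists. They were named by 5′ ends within 1000 bp, otherwise by the gene holding the summit, otherwise by the nearest gene. The peaks and lists were chosen with earlier results of these data known. Alternatives changed the signal minimum, the list, distances, windows, mismatches and assembly.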

Additional observations from a re-analysis of the deposited data

How the results depend on the processing

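Of 57 alternatives over 13 values, 24 stayed within the interval of the value given in the report (for GC content within 1 SD between replicates, for the number within 1.5 times), and 33 moved further. With a signal minimum of 30 the number was 271, and shares were 32.8% in the centre, 35.8% in the right arm, 40.6% with another within 10 kb, 20.7% in coding exons, 52% outside protein-coding genes, 7.38% with the MEX word, 8.86% with GAGAGAGA and 72.7% matched in both replicates, with a median GC content of 44%. With thresholded peaks only they were 32% in the centre, 36% in the left arm, 12% within 10 kb, 20% in introns, 4% in coding exons, 76% outside, 30% with the MEX word, 16% with GAGAGAGA and 88% matched in both, with a GC content of 47.8%. Taking the same number of highest X peaks from 1 replicate's own list, which leaves the other out, gave 26.3% to 28.2% in introns, 24.9% to 27.7% in coding exons, 14.3% to 19% in promoters, 3.35% to 5.24% with GAGAGAGA and a GC content of 40% to 41.5%. Position shares then stayed within their intervals, at 37% to 38.2% in the centre. The promoter share of 14.3%, from replicate 1's list alone, is close to the 13.5% of weaker X peaks. Other distances gave 50.8% within 5 kb and 89.9% within 20 kb, 40% within 1000 bp of a 5′ end, and 42.5% and 77.1% matched within 50 and 200 bp. In a 100 bp window 2.41% held the MEX word and 1.99% GAGAGAGA, and 0.943% held the MEX word without mismatch. The ce10 list had 953 such peaks. No paired analysis was possible because there is 1 group. With 2 replicates and no read counts used, the spread between animals and the effect of depth on signals could not be measured.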
